A study of Mus musculus with 24 samples.

Results

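Sox2, Prox1, Isl1, Gata3 and Eya1, 5 regulators of transcription that mark or shape the prosensory epithelium of the cochlea, were followed through 24 RNA sequencing libraries of the embryonic mouse inner ear. They were chosen by name, as genes known from the prosensory domain, with earlier results of these data known. Each is among the 53946 genes of the count table (Ensembl ENSMUSG00000074637 for Sox2, ENSMUSG00000010175 for Prox1, ENSMUSG00000042258 for Isl1, ENSMUSG00000015619 for Gata3 and ENSMUSG00000025932 for Eya1). All 5 passed the filter on low counts in every comparison. The study asked which genes depend on FGF20, a secreted fibroblast growth factor, in cochlear progenitors of hair cells and supporting cells at embryonic day 14.5. RNA came from the ventral otocyst, which contains the cochlea, either from ribosomes pulled down through a tagged protein (TRAP, translating ribosome affinity purification) or from material labelled pre-TRAP. The tag was L10a-eGFP, a ribosomal protein fused to green fluorescent protein, and its expression was targeted to the lineage of cells that carried the Fgf20-Cre recombinase.

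There were 8 TRAP libraries of Fgf20+/- embryos (TRAP het), 8 TRAP libraries of Fgf20-/- embryos (TRAP mut), 4 pre-TRAP het and 4 pre-TRAP mut libraries, all labelled with the strain C57BL/6J x 129X1/SvJ. A library held the pooled tissue of 3 to 7 embryos of the same genotype. Experiment 1 and experiment 2 each supplied an equal share of every group. Since the controls lacked 1 copy of Fgf20, the comparison was between heterozygotes and null embryos and held no wild type. Both genotypes carried the tag, and which allele carries Cre is not stated in the labels. The labels repeat the immunoprecipitation text for pre-TRAP libraries, and these were read as RNA from before the purification. P-values measure the spread between these pooled libraries.

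In the cochlear duct, a band of epithelium called the prosensory domain gives rise to the hair cells, which detect sound, and to the supporting cells around them. Sox2, an HMG-box factor, is needed for that domain to form and stays on in supporting cells. Eya1 is a transcriptional co-activator and phosphatase that acts at an early step of otic development. Gata3 is a zinc-finger factor of the otic epithelium and of the spiral ganglion, the auditory nerve's cell bodies. Isl1 is a LIM-homeodomain factor of prosensory cells and of inner ear neurons. Prox1 is a homeodomain factor that comes on in prosensory cells as they leave the cell cycle, and it is later found in supporting cells and in some inner ear neurons. In bulk RNA such as this, fewer cells of a type and less RNA per cell cannot be told apart.

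The sequences just before the start sites of Sox2 and Isl1 are shown because these genes had the largest TRAP excess of the 5, together with that of Sox21, an HMG-box gene whose level followed Sox2 most closely over all libraries. They are 250 bases upstream of the start, 5′ to 3′ on the gene's own strand, from RefSeq on build GRCm38.p6, and cover chr3:34649745-34649994 (Sox2, + strand), chr13:116309689-116309938 (Isl1, - strand) and chr14:118237031-118237280 (Sox21, - strand). Capitals mark exact matches, on either strand, to letters that families of factors are known to bind. HMG-box factors such as SOX2 were searched as ACAATG with the close form written ACAAAG. Zinc-finger factors of the GATA family were searched as AGATAA with the close form written TGATAA. The ETS family, which includes targets of FGF signalling, was searched as CCGGAA, and the box bound by nuclear factor Y as CCAAT.
Sox2: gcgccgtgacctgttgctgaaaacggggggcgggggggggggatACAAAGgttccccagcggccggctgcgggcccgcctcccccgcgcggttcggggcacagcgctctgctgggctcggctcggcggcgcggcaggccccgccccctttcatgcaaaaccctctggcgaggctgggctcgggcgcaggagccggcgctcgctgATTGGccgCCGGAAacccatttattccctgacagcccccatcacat
Isl1: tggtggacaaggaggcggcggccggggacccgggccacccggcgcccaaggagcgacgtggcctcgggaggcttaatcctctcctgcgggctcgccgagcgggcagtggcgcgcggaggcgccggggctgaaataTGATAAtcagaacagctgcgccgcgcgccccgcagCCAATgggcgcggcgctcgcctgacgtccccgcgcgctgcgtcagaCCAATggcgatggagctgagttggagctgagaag
Sox21: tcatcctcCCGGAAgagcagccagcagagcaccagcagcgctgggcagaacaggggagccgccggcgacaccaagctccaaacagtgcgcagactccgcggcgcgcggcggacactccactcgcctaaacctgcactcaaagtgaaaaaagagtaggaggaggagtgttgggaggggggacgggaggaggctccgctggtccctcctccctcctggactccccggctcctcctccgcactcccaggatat
In the Sox2 window ACAAAG began 206 bases before the start, CCAAT 46 bases before it on the other strand (ATTGG), and CCGGAA 38 bases before it. The Isl1 window held TGATAA 115 bases before the start and CCAAT at 80 and at 34 bases. The Sox21 window held CCGGAA 242 bases before the start and no letters of the SOX motif. Of the other factors, Gata3 had CCGGAA on the other strand (TTCCGG) 203 bases before its start. Prox1 has 2 start sites in RefSeq, and only the second window held a match, ACAAAG on the other strand (CTTTGT) at 174 bases. Windows were found for 4 of the 5 genes, all but Eya1. Among 32851 windows of the same length, 25.2% held the SOX letters, 16.6% the GATA letters, 12% the ETS letters and 33.8% the last. They describe letters and not bound sites.

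Total counts ran from 30745166 to 53374796 per library. Fgf20, the targeted gene, lay at 3.11 to 5.92 CPM (counts divided by library size) in TRAP het and at 0.825 to 3.02 in TRAP mut, and at 0.382 to 1.72 in pre-TRAP het against 0.139 to 0.289 in pre-TRAP mut. Libraries 3, 4, 5 and 6, 2 of each genotype, were the highest in TRAP by the summed level of 12 mesenchyme markers. They lay at 576.7 to 1310 CPM, against 287 to 520.4 CPM in the other 12 TRAP libraries. Epithelial, neuronal and hair cell marker lists were detected in every group, with no marker at 0 throughout a group. CPM values here are scaled by TMM, a method that makes libraries comparable through the bulk of their genes.

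None of the 5 factors differed between the genotypes past the threshold, which was a Benjamini-Hochberg adjusted p under 0.05 over all genes in edgeR's quasi-likelihood test. In TRAP 0 of 5 were called, where 0.0742% of 21577 genes were, and in pre-TRAP 0 of 5, where 0.00455% of 21954 genes were. DESeq2 and limma voom called 0 of 5 as well. At an unadjusted p under 0.05, Sox2 alone of the 5 was reached in each kind of RNA, where 3.77% of all genes were reached in TRAP and 4.77% in pre-TRAP.

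**Figure D1:**
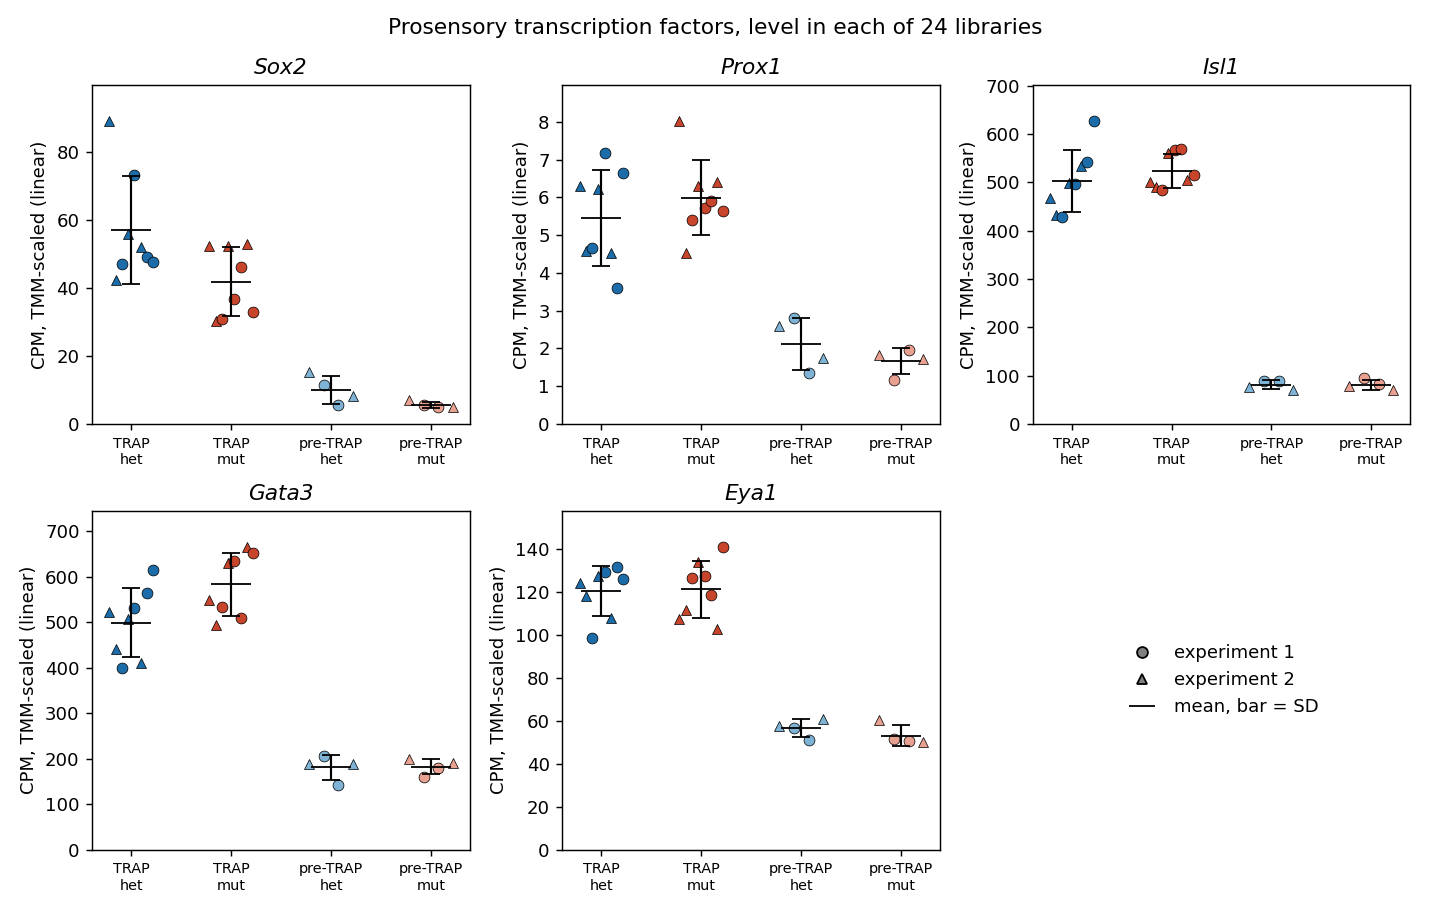
Level of each factor in the 24 libraries, in CPM scaled by TMM on a linear axis, with circles for experiment 1, triangles for experiment 2, a long bar for the group mean and a short-capped bar for the SD. All TRAP libraries lie above all pre-TRAP libraries for each factor, the genotypes overlap in every panel, and Sox2 is the panel where the mut points sit lowest against the het points.

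Sox2 had the lowest p of the 5 in both kinds of RNA, with mut below het in each, yet the change did not pass the test. In TRAP het it lay at 47.1, 73.2, 49.0 and 47.5 CPM in experiment 1 and at 89.0, 42.3, 55.7 and 51.9 CPM in experiment 2. In TRAP mut it lay at 31.0, 36.7, 46.0 and 33.0 CPM in experiment 1 and at 52.3, 30.3, 52.3 and 52.8 CPM in experiment 2. Libraries 1 and 9, at 89.0 and 73.2 CPM, were the highest of the het group, 4 of the 8 mut libraries were below every het library, and all 8 were below the het mean, so the groups overlapped. The means were 57.0 ± 16.0 CPM (SD, n = 8) and 41.8 ± 10.1 CPM (SD, n = 8), and the ratio of the medians was 0.820. The fitted log2 fold change was -0.47 ± 0.16 (SE), 1.39-fold lower, with a 95% interval from -0.81 to -0.13, an unadjusted p of 0.00891 and an adjusted p of 0.933 in edgeR. DESeq2 gave an adjusted p of 0.661 and limma voom 0.809. Within experiment 1 the log2 difference was -0.57 and within experiment 2 it was -0.35. Without libraries 3, 4, 5 and 6 it was -0.45, with an adjusted p of 0.838 in edgeR.

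In pre-TRAP RNA, Sox2 lay at 11.4 and 5.56 CPM in the het libraries of experiment 1 and at 15.2 and 8.12 CPM in those of experiment 2. The mut libraries were at 5.51 and 5.07 CPM in experiment 1 and at 6.96 and 4.88 CPM in experiment 2. Of the 4 mut libraries, 3 were below every het library, and the het library at 5.56 CPM kept the groups from being separate. Full separation, with all mut libraries below all het libraries in pre-TRAP, held for 0.879% of the 24242 genes kept over all 24 libraries. Sox2 was not among these genes, and the share of genes with its pattern of 3 of 4 was not counted. The means were 10.1 ± 4.16 CPM and 5.60 ± 0.941 CPM (SD, n = 4 each). The log2 fold change was -0.83 ± 0.26 (SE), with a 95% interval from -1.39 to -0.27, an unadjusted p of 0.00727 and an adjusted p of 0.837 in edgeR. It was -0.66 within experiment 1 and -0.96 within experiment 2. Counts behind these values were 171 to 538 per library. The counting error was 5.23% of the mean in het and 6.81% in mut, against spreads between libraries of 41.4% and 16.8%. Sox2 was thus one of the more variable of the 5 factors. In TRAP its spread between libraries was 28.0% in het and 24.1% in mut, for counting errors of 2.14% and 2.52%.

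The share of neuron RNA differed between TRAP libraries and stood beside the Sox2 level. The neuron level, the mean log2 level of 14 neuron markers, was 6.85 ± 0.221 in TRAP het and 7.02 ± 0.114 in TRAP mut (SD, n = 8 each), and the summed CPM of the list ran from 2732 to 5261 in het and from 3746 to 5070 in mut. With the neuron level as a covariate, Sox2 passed the test in TRAP, at a log2 fold change of -0.71 ± 0.14 and an adjusted p of 0.0109 in edgeR. Over the other 27 alternatives its adjusted p ran from 0.507, without library 3, to 1. In the fit with the neuron level 940 genes were called, 4.36% of those tested, against 16 without the covariate. The other 4 factors were not called in it. With the mesenchyme level as a covariate the Sox2 difference was -0.46, and with the glia level it was -0.42, neither past the threshold. In pre-TRAP, with the neuron level as a covariate, the Sox2 difference was -0.85 with an adjusted p of 0.0880 in edgeR, against 0.268 to 1.00 over the other 16 alternatives. In that fit 4517 of 21954 genes had an unadjusted p under 0.05, against 1048 without the covariate, and 1 gene was called in each. The part of the neuron RNA in the Sox2 difference was not tested beyond these fits.

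**Figure D2:**
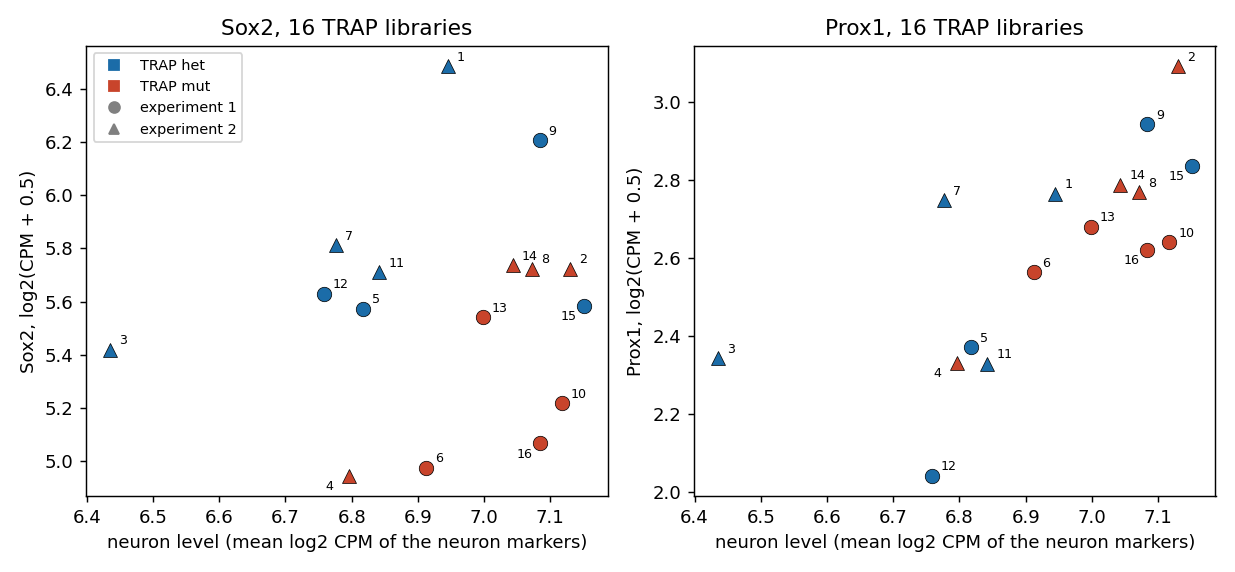
Level of Sox2 (left) and Prox1 (right) on a log2 scale against the neuron level in the 16 TRAP libraries, numbered as deposited, in blue for het and red for mut, with circles for experiment 1 and triangles for experiment 2. Prox1 tends to be higher where the neuron level is higher, library 3 has the lowest neuron level, and the highest Sox2 points are het libraries 1 and 9.

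Eya1, the co-activator and phosphatase, was nearly level between the genotypes. In TRAP its lowest, median and highest levels were 98.6, 125.0 and 131.5 CPM in het and 102.4, 122.4 and 140.7 CPM in mut. The log2 difference was -0.01 ± 0.10 (SE), with a 95% interval from -0.22 to 0.20. In pre-TRAP the het libraries were at 56.5, 51.2, 57.6 and 60.8 CPM and the mut libraries at 51.7, 50.5, 60.2 and 49.9 CPM, a log2 difference of -0.09 ± 0.14 (SE) with an interval from -0.39 to 0.20. Its spread between the TRAP het libraries was the smallest of the 5, at 9.61% of the mean, while in TRAP mut it was 11.1% against 6.73% for Isl1.

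Gata3, the zinc-finger factor, had a higher mean in TRAP mut than in TRAP het. Its lowest, median and highest levels were 400.6, 515.4 and 615.0 CPM in het and 494.6, 590.0 and 665.5 CPM in mut. Of the 8 mut libraries 4 were above every het library and 7 were above the het mean. The log2 difference was 0.21 ± 0.11 (SE), with a 95% interval from -0.03 to 0.45, an unadjusted p of 0.0779 and an adjusted p of 1 in edgeR. In pre-TRAP the means were 181.5 ± 27.1 CPM in het and 182.5 ± 16.8 CPM in mut (SD, n = 4 each). Gata3 lay there at 206.0, 142.8, 188.4 and 188.6 CPM in het and at 160.0, 180.7, 198.9 and 190.6 CPM in mut, a log2 difference of 0.01 ± 0.15 with an interval from -0.31 to 0.32.

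Isl1, the LIM-homeodomain factor, was at 429.4, 497.7 and 626.6 CPM (lowest, median and highest) in TRAP het and at 485.1, 510.5 and 568.3 CPM in TRAP mut. The mut range lay inside the het range. The log2 difference was 0.04 ± 0.10 (SE), with a 95% interval from -0.16 to 0.25. In pre-TRAP it was at 89.5, 89.7, 77.4 and 69.5 CPM in het and at 95.2, 82.2, 79.7 and 69.9 CPM in mut, with a log2 difference of 0.00 ± 0.13 (SE) and an interval from -0.29 to 0.30.

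Prox1, the homeodomain factor of prosensory cells that leave the cell cycle, had the fewest counts of the 5, from 57 to 288 per library. In TRAP its lowest, median and highest levels were 3.61, 5.44 and 7.18 CPM in het and 4.53, 5.82 and 8.02 CPM in mut, so that 1 mut library was above all het libraries. The log2 difference was 0.11 ± 0.16 (SE), with a 95% interval from -0.22 to 0.45. In pre-TRAP the het libraries were at 2.81, 1.36, 2.59 and 1.75 CPM and the mut libraries at 1.18, 1.96, 1.83 and 1.71 CPM. All 4 mut libraries were below the het mean there, and the log2 difference was -0.36 ± 0.28 (SE), with an interval from -0.96 to 0.25. With each library left out it ran from -0.52 without het library 21 to -0.08 without het library 19. The counting error in pre-TRAP was 11.4% of the mean in het and 12.65% in mut, against spreads between libraries of 32.2% and 20.6%.

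**Figure D3:**
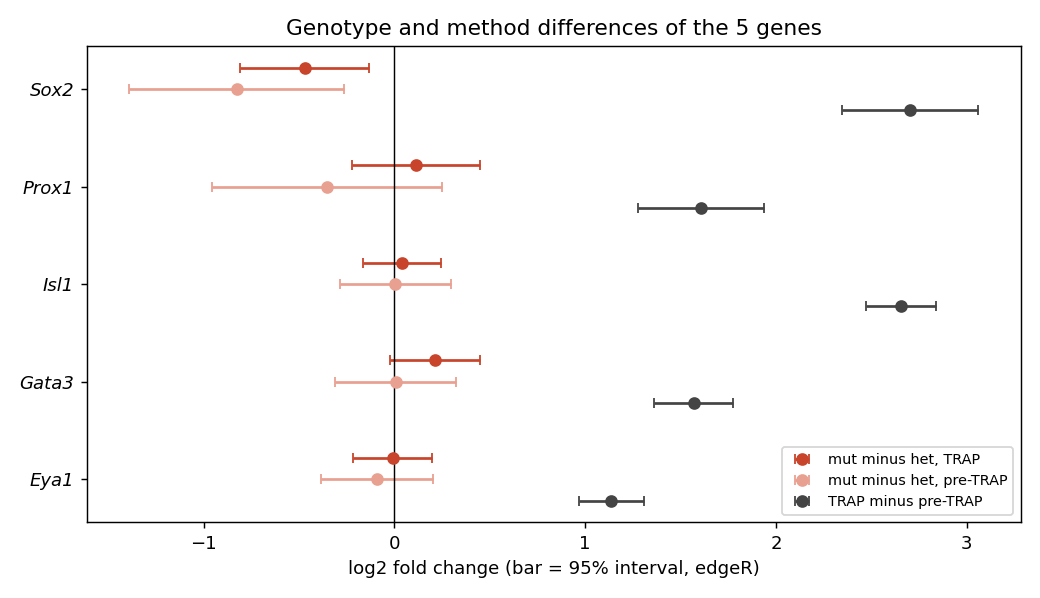
Log2 fold change of each factor with its 95% interval from edgeR, for mut minus het in TRAP (red), mut minus het in pre-TRAP (pale red) and TRAP minus pre-TRAP (grey). The Sox2 genotype intervals lie below 0 in both kinds of RNA, those of the other factors include 0, and all 5 grey intervals lie above 0.

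Whether the genotype difference itself differed between TRAP and pre-TRAP was tested with an interaction term over all 24 libraries. No factor was called (0 of 5, with 0% of 24242 genes called and 1.25% at an unadjusted p under 0.05), and DESeq2 and limma voom called 0 of 5 too. For Sox2 the edgeR term was 0.37 ± 0.31 (SE) and ran from 0.16 without pre-TRAP het library 17 to 0.56 without pre-TRAP het library 21 when each library was left out. For Prox1 it was 0.48 ± 0.30, from 0.24 without pre-TRAP het library 19 to 0.64 without pre-TRAP het library 21. The unadjusted p was over 0.1 for all 5 in edgeR. In limma voom the Sox2 term was 0.64 with an unadjusted p of 0.0280, the Prox1 term was 0.68 with an unadjusted p of 0.0259, and both had an adjusted p of 0.595. For this term 1980 of 24242 genes had an unadjusted p under 0.05 in limma voom, against 302 in edgeR. A term for the genotype difference between the experiments in TRAP also passed for no factor (0 of 5 called in edgeR, DESeq2 and limma voom, with 0% of genes called in edgeR and 2.11% at an unadjusted p under 0.05), and the Sox2 term was 0.24 ± 0.33 in edgeR. With each library left out it ran from 0.06 without TRAP het library 9 to 0.50 without TRAP het library 1.

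The levels themselves were also compared between the 2 experiments. In TRAP 0 of 5 were called for experiment 2 against experiment 1, where 23% of genes were called, and in pre-TRAP 0 of 5, where 14.7% were. DESeq2 and limma voom called 0 of 5 in both, and none of the 5 had an unadjusted p under 0.05 in edgeR, a level that 34.5% of genes reached in TRAP and 28.8% in pre-TRAP. Sox2 had the largest term in TRAP, at 0.29 ± 0.16 with an adjusted p of 0.219 in edgeR. It became 0.42 with an adjusted p of 0.0134 when the neuron level was a covariate, a fit that called 39.9% of genes. Its adjusted p was 0.0791 to 0.483 over the other 22 alternatives. In pre-TRAP the Isl1 term was -0.26 ± 0.13 with an adjusted p of 0.230, and the 2 het libraries of experiment 1 were nearly equal at 89.5 and 89.7 CPM.

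All 5 factors were higher in TRAP than in pre-TRAP RNA. They passed the test in edgeR (5 of 5, where 27.9% of 24242 genes were called higher and 59.1% were called in either direction), and every TRAP library was above every pre-TRAP library for each of them, which held for 6.33% of genes tested. Sox2 and Isl1 had the largest excess. Sox2 had a mean of 49.4 ± 15.1 CPM (SD, n = 16) in TRAP and 7.83 ± 3.67 CPM (SD, n = 8) in pre-TRAP, a fitted 6.51-fold excess with a log2 fold change of 2.70 ± 0.17 (SE) and an adjusted p of 5.33e-13. Isl1 had 513.8 ± 51.4 CPM and 81.6 ± 9.37 CPM, a 6.31-fold excess with a log2 fold change of 2.66 ± 0.09 and an adjusted p of 3.18e-18. Prox1 was 3.05-fold higher (log2 1.61 ± 0.16, 5.73 ± 1.14 against 1.90 ± 0.558 CPM) and Gata3 2.97-fold higher (log2 1.57 ± 0.10, 541.5 ± 82.6 against 182.0 ± 20.9 CPM). Eya1 had the smallest excess, 2.20-fold (log2 1.14 ± 0.08, 120.6 ± 12.1 against 54.8 ± 4.49 CPM).

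The 95% intervals of these log2 excesses ran from 2.35 to 3.06 for Sox2, 2.48 to 2.84 for Isl1, 1.28 to 1.94 for Prox1, 1.36 to 1.78 for Gata3 and 0.97 to 1.31 for Eya1. The intervals of Sox2 and Isl1 overlapped, as did those of Prox1 with both Gata3 and Eya1, and the differences between factors were not tested. The gap between the kinds of RNA was widest for Isl1, whose lowest TRAP library was 4.51 times its highest pre-TRAP library. The same ratio was 2.00 for Sox2, 1.95 for Gata3, 1.62 for Eya1 and 1.29 for Prox1. With each genotype alone the excess of Sox2 was 2.51 on the log2 scale in het and 2.91 in mut, that of Prox1 1.36 and 1.87, that of Gata3 1.45 and 1.70, that of Isl1 2.63 and 2.71, and that of Eya1 1.09 and 1.21. These pairs are the values side by side, and the interaction above is the test of their difference.

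Other cell types' RNA moved with this comparison. Neuron markers were called higher in TRAP for 12 of 14, with 1 lower and a median log2 difference of 2.46, and their summed level was 2732 to 5261 CPM in TRAP and 564.2 to 889.6 CPM in pre-TRAP. Hair cell markers were higher for 8 of 10 (median 2.97), and epithelial markers for 7 of 10 with 1 lower (median 0.54). Mesenchyme markers were lower for 10 of 12 with 1 higher (median -2.05), endothelial markers for 9 of 9 (median -2.32), melanocyte markers for 6 of 6 (median -2.58) and Schwann cell and glia markers for 6 of 8 with 2 higher (median -1.53). Over all genes the median was -0.01, and of 24242 genes 6760 (27.9%) were called higher and 7560 lower. Isl1 and Gata3 belong to neurons as well as to the epithelium, and the part of each source in the excess was not tested.

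A list of 28 prosensory and otic partner genes, chosen with earlier results of these data known, was read beside the 5 factors. Of its members 27 were tested between the kinds of RNA, and 14 were higher and 7 lower in TRAP, where 27.9% of all genes were called higher and 59.1% in either direction. The list's median log2 difference was 0.39, against -0.01 over all genes. Atoh1, the hair cell determination factor, was higher by 2.95 and Sox21 by 2.80. The Notch target Hey1 was higher by 1.59 and Lfng, a modifier of Notch receptors, by 1.63. Sox10, an HMG-box factor of otic epithelium and glia, was higher by 1.22. In the other direction Bmp4, a signal of the outer flank of the duct, had -1.46, Tbx1 -1.23, Sox9 -1.04 and the FGF receptor Fgfr1 -1.15.

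Between the genotypes the same list held 1 called gene in TRAP, where 0.0742% of all genes were called. Hey2, a repressor of the Notch effector family, fell from 22.3 ± 4.86 CPM in TRAP het to 10.3 ± 1.36 CPM in TRAP mut (SD, n = 8 each), a log2 fold change of -1.13 ± 0.14 with an adjusted p of 0.000818 in edgeR. Of 26 tested, 17 had a negative and 9 a positive difference, with a median of -0.03 against -0.02 over all genes. DESeq2 called 2 of the list lower, where it called 53 of 21551 genes in all. Limma voom called 1 lower, where it called 31 of 21577 genes. Next to Hey2 the largest differences in TRAP were Fgf20 itself (-0.94, adjusted p 0.188), Hey1 (-0.57, adjusted p 0.240) and the cell cycle inhibitor Cdkn1b (-0.44, adjusted p 0.910), none past the threshold. With the neuron level as a covariate 6 of the list were called lower and 1 higher, in a fit that called 4.36% of all genes.

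In pre-TRAP 0 of 26 partner genes were called in edgeR, 0 in DESeq2 and 0 in limma voom. In edgeR 0.00455% of all genes were called. An unadjusted p under 0.05 in edgeR was reached by 8 of 26, and by 4.77% of all genes. The difference was negative for 22 of 26, with a median of -0.31, while 46.0% of all genes had a positive difference and their median was -0.03. Fgf20 had -1.75, Lfng -1.06, Atoh1 -1.04 and Tbx1 -0.81, each with an adjusted p of 0.837. Sox21, at 3.91 ± 1.27 CPM in het and 2.36 ± 0.747 CPM in mut (SD, n = 4 each), had -0.72. Since the list was chosen with these data in view, its counts are a description.

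**Figure D4:**
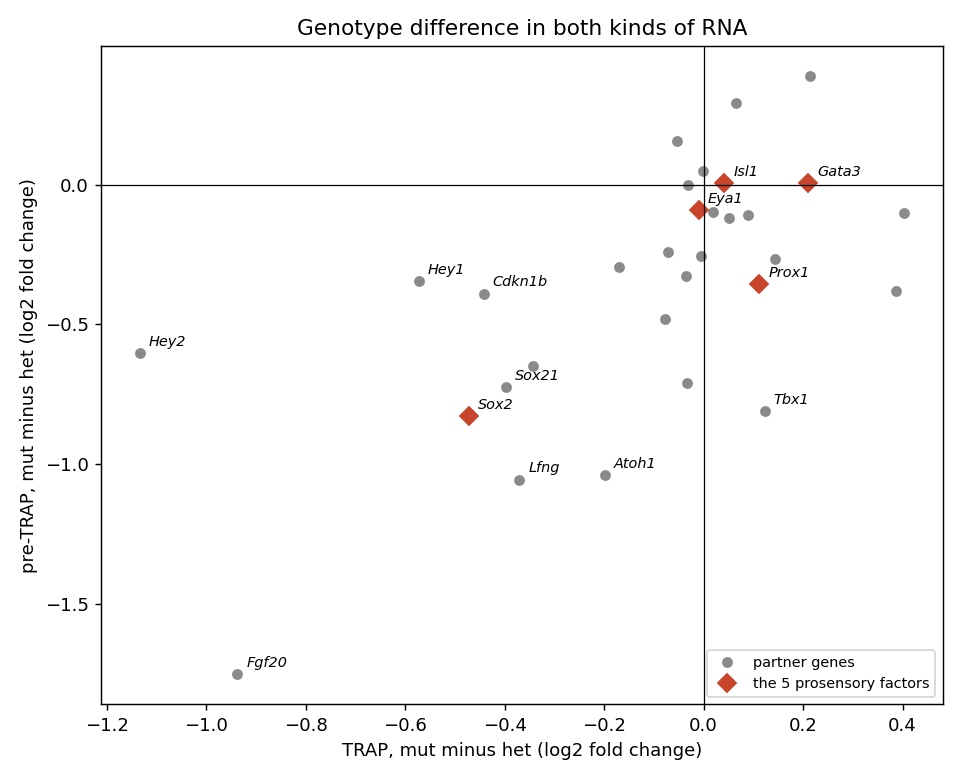
Log2 fold change of mut minus het in TRAP (horizontal axis) against that in pre-TRAP (vertical axis) for the 26 partner genes tested in both (grey dots) and the 5 factors (red diamonds). The genes named are the 4 with the largest differences on either axis, Sox21 and the factors, and Sox2 lies in the lower left near Sox21 while Isl1, Gata3 and Eya1 lie near 0 on the vertical axis.

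Each factor belongs to a gene family, and 12 paralogs were looked at. Of 10 tested between the kinds of RNA, 3 were higher in TRAP and 2 lower, where 27.9% of all genes were called higher and 59.1% in either direction. Isl2, the sister of Isl1 and a neuronal factor, was higher by 2.66 on the log2 scale, Sox1, a close relative of Sox2, by 1.72 and Eya4 by 0.56. The haematopoietic and endothelial factor Gata2, which is also an otic gene, had -1.15 and Gata6 -2.20. Sox1 and Gata6 rested on few reads, with group means of 0.0494 to 0.184 CPM and 0.0932 to 0.506 CPM. Isl2 had group means of 2.59 to 20.7 CPM. Between the genotypes 0 of 7 paralogs were called in edgeR in TRAP and 0 of 7 in pre-TRAP. An unadjusted p under 0.05 in edgeR was reached by 3.77% of all genes in TRAP and 4.77% in pre-TRAP, and by 1 paralog in each. In both it was Gata2. In TRAP Gata2 had a mean of 14.4 ± 2.62 CPM in het and 21.7 ± 4.45 CPM in mut (SD, n = 8 each), a log2 fold change of 0.55 ± 0.12 with an adjusted p of 0.129, and DESeq2 called 1 paralog higher while limma voom called 0. In pre-TRAP its difference was -0.37 ± 0.17 with an adjusted p of 0.837, where DESeq2 and limma voom called 0.

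How the 5 factors varied together was measured across the 16 TRAP libraries after removing the mean of each genotype and experiment, so that only the spread within those 4 cells remained. Of the 10 pairs, 0 had a permutation p under 0.05 after adjustment over the pairs, and 2 had an unadjusted p under 0.05. For Sox2 and Prox1, Pearson's r was 0.668 (permutation p = 0.00789, adjusted 0.0789) and Spearman's rho was 0.694 (permutation p = 0.00861, adjusted 0.0861). Without the 2 libraries farthest from the Sox2 median r was 0.572, and within the experiments it was 0.516 and 0.806. For Gata3 and Eya1 r was 0.682 (permutation p = 0.0216, adjusted 0.108) and rho 0.579 (permutation p = 0.0437, adjusted 0.218), with r = 0.549 without 2 libraries and 0.885 and 0.406 within the experiments. With DESeq2's size factors in place of TMM the Sox2 and Prox1 pair passed, at r = 0.685 with an adjusted permutation p of 0.0300. Without libraries 3, 4, 5 and 6 its r was 0.472 with an adjusted permutation p of 0.666.

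The same was done for each factor with the neuron, mesenchyme and glia levels, 15 relations chosen after the data were seen. Prox1 and the neuron level passed by Pearson's r and not by rho, at r = 0.782 (permutation p = 0.00571, adjusted 0.0428) and rho = 0.735 (permutation p = 0.0214, adjusted 0.129). It was 0.764 without the 2 farthest libraries and 0.876 and 0.714 within the experiments. So did Isl1 and the mesenchyme level, in the opposite direction, at r = -0.753 (permutation p = 0.00526, adjusted 0.0428) and rho = -0.665 (permutation p = 0.0215, adjusted 0.129), with -0.607 without the 2 farthest and -0.772 and -0.701 within the experiments. Sox2 and the neuron level had r = 0.679 (permutation p = 0.0179, adjusted 0.0732) and rho = 0.574 (permutation p = 0.0445, adjusted 0.129). It was 0.472 without the 2 farthest libraries and 0.332 and 0.869 within the experiments. Eya1 had the weakest relation of the 5 to the neuron level, at r = 0.208 (permutation p = 0.522, adjusted 0.530), rho = 0.179 (permutation p = 0.570, adjusted 0.570), 0.241 without the 2 farthest libraries and 0.371 and 0.0674 within the experiments. These levels are all fractions of the same libraries, and the part of this in the relations was not tested.

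Genes whose pattern was most like that of each factor were listed by Pearson's r of the log2 level, which is a description over libraries that share depth and tissue. Over all 24 libraries r also holds the difference between TRAP and pre-TRAP, which was large for each factor. Spearman's rho of the genes listed over all libraries ran from 0.815 (Isl1 with Shtn1) to 0.975 (Prox1 with Prkar2b). Within the TRAP groups, over 16 libraries and 11591 genes, Sox2 was followed most closely by the forkhead gene Foxq1 (r = 0.937), by Mtss1 (0.936) and by Sox21 (0.927). Over all 24 libraries and 11887 genes, Sox21 was first (0.989), followed by Pou4f2 (0.981) and Clic5 (0.980), a gene of hair cell stereocilia. Prox1 was followed within TRAP by Sh3kbp1 (0.961), Usp12 (0.955) and Prkar2b (0.950), a regulatory subunit of protein kinase A, and over all libraries by Prkar2b (0.985), Trim2 (0.978) and Shc2 (0.975). Sox2 and Prox1 shared no gene among these.

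For Isl1 the genes within TRAP were Ccdc71 (0.875), Txnl4a (0.864) and Lpcat4 (0.853), and over all libraries Stmn3 (0.991), a neuronal stathmin, Phactr3 (0.990) and Shtn1 (0.990). For Gata3 they were Srpk2 (0.933), Lrrc8d (0.928) and Plagl2 (0.895) within TRAP, and Ankrd45 (0.981), the growth factor gene Fgf9 (0.979) and Tspyl4 (0.978) over all. For Eya1 they were Lancl2 (0.910), Shkbp1 (0.910) and Sbno2 (0.909) within TRAP, and Scrn1 (0.984), Klhl14 (0.982) and Frmd3 (0.979) over all. Only Sox21 for Sox2 and Prkar2b for Prox1 were among the 3 by both measures.

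Some of the factors lie across or beside long noncoding RNAs, and no source used here gives the strand setting of the counts, so reads of overlapping genes could not be told apart. Sox2 lies within Sox2ot, whose level was 0.427 to 1.78 CPM over the 24 libraries. Sox2ot had a TRAP minus pre-TRAP log2 difference of -0.02 ± 0.20, unlike the 2.70 of Sox2. Between the genotypes it had -0.18 ± 0.24 in TRAP and 0.39 ± 0.32 in pre-TRAP. Prox1os, which overlaps Prox1, was at 0.0555 to 1.77 CPM and 2.38 ± 0.30 higher on the log2 scale in TRAP, with an adjusted p of 1.09e-07 in edgeR. The transcripts 4930412O13Rik and 9230102O04Rik overlap Gata3, with highest levels of 1.24 and 3.80 CPM. Both were higher in TRAP, by 1.53 ± 0.30 and 1.77 ± 0.21 on the log2 scale.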

How the data were processed

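The authors deposited unnormalized whole-number counts by Ensembl gene, from polyA RNA libraries made with a Clontech SMARTer kit per the labels. STAR, DESeq2 and build GRCm38.p5 are named, without versions, in the submitters' processing notes. The counting tool and strand setting are not given in any source used here. Symbols were matched for 53274 of 53946 genes. No 2 libraries were alike within counting error (68 replicate pairs, chi-square per degree of freedom 26.3 to 261).

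Counts were fitted over all genes in edgeR 4.0.16 (R 4.3.3) with TMM, filterByExpr (minimum count 10 on genotype, method and experiment cells), quasi-likelihood tests and experiment as a covariate. Benjamini-Hochberg adjusted p under 0.05 was called. Standard errors are the fold change over the square root of F. Levels are CPM, with 0.5 added before log2. Permutation p-values are two-sided and exact, over 331776 arrangements within the 4 cells of the 16 TRAP libraries. Without libraries 3, 4, 5 and 6 there were fewer arrangements. Alternatives used DESeq2 1.42.0, limma 3.58.1 voom with quality weights, other scaling, no filter, no covariate or a composition covariate, subsets, and each library left out. Fits were tested on simulated counts. Likeness took genes with a symbol and a mean of at least 2 CPM. The named genes were the 5 factors, Fgf20, 3 genes a factor by likeness, and called or extreme list members. The factors and lists were chosen with earlier results of these data known. Promoter windows came from RefSeq on GRCm38.p6.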

Additional observations from a re-analysis of the deposited data

How the results depend on the processing

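The 5 calls of TRAP over pre-TRAP, and their direction, held in all 34 alternatives. In the genotype comparison 0 factors were called in 27 of 28 alternatives in TRAP and in 17 of 17 in pre-TRAP. With the neuron level as a covariate 1 factor, Sox2, was called for genotype in TRAP and 1, Sox2 again, for experiment. With DESeq2's size factors 1 correlation pair passed, where 0 did with TMM. The Sox2 difference in TRAP ran from -0.54 to -0.37 with each library left out in turn, and in pre-TRAP from -1.03 to -0.57. The cause of these shifts was not tested.

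Differences near 0 changed sign. In TRAP mut minus het Eya1 was 0.0767 in experiment 1 alone, 0.00833 with all 24 libraries in 1 fit, 0.0110 with the glia level and -0.0591 to 0.0184 with each library left out, and with the neuron level Prox1 was -0.11 and Isl1 -0.0350. In TRAP experiment 2 minus experiment 1, with the neuron level, Isl1 was 0.0111 and Gata3 0.0374, and with each library left out they ran from -0.0864 to 0.00667 and from -0.0900 to 0.00805. In pre-TRAP mut minus het Gata3 was -0.0211 with limma voom, -0.0165 in experiment 1 alone, -0.00820 with the neuron level and -0.0815 to 0.155 with each library left out, and Isl1 was -0.0116 with the neuron level and -0.0324 to 0.0510 with each library left out. Leaving out libraries gave -0.0459 to 0.417 for Prox1 in pre-TRAP experiment 2 minus experiment 1, and for Isl1 -0.0135 to 0.110 in the genotype by method term and -0.0241 to 0.177 in the genotype by experiment term. Without libraries 3, 4, 5 and 6, r was -0.515 for Sox2 and Isl1, -0.109 for Sox2 and Gata3, -0.0148 for Sox2 and Eya1, -0.194 for Prox1 and Isl1, -0.0478 for Isl1 and Gata3 and -0.0647 for Isl1 and Eya1.

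The number of genes called in TRAP mut minus het was 16, but 27 with no filter, 53 with DESeq2, 31 with limma voom, 4 with no experiment covariate, 2 and 2 in either experiment alone, 35 with all 24 libraries, 26 with the mesenchyme level, 940 with the neuron level, and 6 to 16 with each library left out. In TRAP experiment 2 minus experiment 1 it was 4952, and 8604 with the neuron level. In pre-TRAP mut minus het it was 1, with 0 to 2 over the alternatives. In pre-TRAP experiment 2 minus experiment 1 it was 3231, with 1995 to 4925 when each library was left out. In TRAP minus pre-TRAP it was 14320, and 9249 in het alone. No paired analysis was possible because no label ties a library of one group to one of another. Prox1, with the fewest counts, has the least precise values.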
